A study of Mus musculus with 6 samples.

Results

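The genes described here drive the G2 phase and mitosis. They were chosen by name as rows of the deposited expression table: cyclins, mitotic kinases, kinesins, spindle checkpoint, centromere, condensin, cytokinesis and anaphase-promoting complex (APC/C) genes. All 46 named genes are among the 24848 gene symbols of the table. Poly(A) RNA was sequenced from RAW 264.7 cells, a mouse macrophage line transformed by a leukaemia virus, in 3 libraries labelled APOBEC1 KO and 3 libraries labelled WT. Each library came from its own plate, with no treatment named for either group. The labels give neither how the knockout was made nor from how many clones, so the loss of APOBEC1 and whatever else distinguishes the KO from the WT cells cannot be told apart. The p-values reflect how much libraries from separate plates varied, whether in the cells or in the making and sequencing of the libraries. The study set RNA editing read from Sanger traces against RNA-seq of these cells. The comparison available for the mitotic genes is their RNA level in KO against WT cells.

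Entry into mitosis is set by CDK1 bound to cyclin B, which CDC25 phosphatases switch on. Aurora and Polo-like kinases then build the spindle, the checkpoint holds anaphase until every kinetochore is attached, and the APC/C with CDC20 marks cyclin B and securin for destruction. Many of these genes are transcribed as a wave in G2: the MuvB complex binds the cell cycle homology region (CHR) of their promoters, with DREAM proteins to repress them in resting cells and with B-MYB and FOXM1 to activate them in dividing cells, while NF-Y binds nearby CCAAT boxes. In bulk RNA, more cells in G2 or mitosis and more RNA of these genes per cell cannot be told apart.

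The promoter letters are shown first because most of the genes with a promoter entry hold CHR or CCAAT letters. RefSeq promoters (GRCm38.p6, 250 bases before and 50 after the start) were available for 38 of the 46 genes. The CHR letters TTTGAA, on either strand, stood in 28 of these 38 promoters (73.7%), against 20.2% of all 27025 genes with a promoter and 14.3% of the 8487 tested genes with a promoter. Restricted to the stretch from 100 bases before the start to the end of the window, 26 of 38 promoters (68.4%) held TTTGAA, against 9.23% of all genes. CCAAT, on either strand, stood in 29 of 38 (76.3%), against 41.1% of all genes, and 25 of 38 (65.8%) held both, against 8.97% of all genes. The variant TTCGAA was in 4 of 38 (10.5%), against 1.80% of all genes. Of 116 matches to these motifs, 1 pair shared bases. A match is a description of letters and not of a bound site.

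The matches below belong to the 5 genes with the largest difference among those with TTTGAA in their promoter entry, and to Cenpa, the called gene that went the other way. Capitals mark the CHR letters, which on the gene's strand read TTCAAA where the match is on the opposite strand. The first capital lies at -29 from the RefSeq start (the first transcribed base is +1) in Ube2c, at 33 in Aurka, 25 in Spc25, 41 in Bub1b, 31 in Plk1 and 17 in Cenpa.
Ube2c, chr2:164769890-164769915, plus strand: agggttgcaaTTCAAAcgcgggcggc
Aurka, chr2:172370523-172370548, minus strand: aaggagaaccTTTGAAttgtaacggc
Spc25, chr2:69206174-69206199, minus strand: cggtggagagTTTGAAattgaaagac
Bub1b, chr2:118598241-118598260, plus strand: agacgttaaaTTTGAAactt
Plk1, chr7:122159455-122159480, plus strand: cagcgccgcgTTTGAAttcggggagg
Cenpa, chr5:30666892-30666917, plus strand: cgggtgatttTTTGAActgctggcga

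Upstream of 4 of these starts, the 120 bases before the start show the CCAAT boxes in capitals (ATTGG where the box is on the opposite strand). Aurka and Spc25 each carry a pair of boxes, with first bases at -51 and -19 in Aurka and at -55 and -23 in Spc25. Bub1b has a box at -113 and Plk1 a box at -14. Ube2c and Cenpa, whose upstream bases are not printed, also carry a pair each. The first bases lie at -88 and -57 in Ube2c and at -109 and -86 in Cenpa.
Aurka, chr2:172370571-172370690, minus strand: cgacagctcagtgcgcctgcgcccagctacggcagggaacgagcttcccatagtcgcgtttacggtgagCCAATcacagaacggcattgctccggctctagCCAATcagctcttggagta
Spc25, chr2:69206214-69206333, minus strand: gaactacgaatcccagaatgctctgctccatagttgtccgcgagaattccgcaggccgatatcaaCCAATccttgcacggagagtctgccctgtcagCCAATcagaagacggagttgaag
Bub1b, chr2:118598091-118598210, plus strand: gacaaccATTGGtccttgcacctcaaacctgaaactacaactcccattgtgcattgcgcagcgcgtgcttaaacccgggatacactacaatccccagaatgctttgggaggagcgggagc
Plk1, chr7:122159315-122159434, plus strand: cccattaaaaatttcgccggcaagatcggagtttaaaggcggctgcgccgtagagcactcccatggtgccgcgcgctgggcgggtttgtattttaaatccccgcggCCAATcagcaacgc

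The libraries held 59768682 to 70411383 reads in KO and 50493447 to 67392191 in WT. Levels are in CPM, the reads of a gene after each library is brought to the same total, and 1 read was worth 0.0142 to 0.0198 CPM. Apobec1, the targeted gene, had 339.1, 340.1 and 361.2 CPM in KO replicates 1, 2 and 3, against 372.5, 430.8 and 396.2 CPM in WT replicates 1, 2 and 3. Its log2 fold change was -0.20 ± 0.07 (SE) with an adjusted p of 0.0663, and because the edited bases are not stated, the RNA level does not check the genotype. All 10 macrophage markers were detected, with summed levels of 3970 to 4402 CPM in KO and 3667 to 3810 CPM in WT. They did not move together. At an adjusted p under 0.05, Lyz2, Mertk and Spi1 were higher in KO and Adgre1 and Fcgr1 were lower. Mertk and Spi1, at log2 fold changes of 0.33 and 0.39, lie on chromosome 2, where the median of all tested genes was 0.34. Lyz2 averaged 1238 CPM in KO and 708 CPM in WT, while the log2 fold change was -0.50 for Adgre1 and -0.30 for Fcgr1. The T cell, fibroblast and epithelial lists each summed to less than 1 CPM in every library, with Cd3e, Cd3g, Col1a1, Dcn and Krt18 listed at 0 throughout. Among the neutrophil markers S100a8 carried a summed level of 3.12 to 4.55 CPM in KO and 0.856 to 1.07 CPM in WT, while Ly6g, Mpo, Elane and S100a9 were listed at 0. B2m, which nearly every cell uses, was also listed at 0 in all 6 libraries, so a 0 in this table need not mean absence. None of the mitotic genes was at 0: their lowest value was 22.7 CPM, and their smallest count 1273 reads.

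All 46 genes passed the filter of at least 1 CPM in at least 3 libraries and were tested among 10614 genes with limma on log2(CPM + 0.5), where a gene is called at a Benjamini-Hochberg adjusted p under 0.05. In KO cells 18 genes were higher, 1 (Cenpa) was lower and 27 were not called. Calls were common across the transcriptome: 30.4% of the tested genes differed, 13.5% being higher in KO and 16.9% lower in KO. The share of mitotic genes called higher was 39.1%. Their log2 fold changes ran from -0.21 to 0.76 with a median of 0.23, against a median of -0.02 over all tested genes, and 40 of 46 were positive, against 46.3% of all tested genes. None reached a difference of 2-fold, which 3.70% of all tested genes did. The 3 KO values lay above the 3 WT values without overlap in 26 of the 46 genes, an arrangement seen in 20.9% of all tested genes, and below them in 1, an arrangement seen in 25.4%.

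Summed over the 46 genes, the level was 7067, 6788 and 7644 CPM in KO replicates 1, 2 and 3, against 5856, 6397 and 5862 CPM in WT replicates 1, 2 and 3. Each KO sum lay above each WT sum, at 0.717% ± 0.0437 of reads in KO and 0.604% ± 0.0311 in WT (SD, n = 3 each). The ratio of these means was 1.19. The sums include the 8 genes of chromosome 2. Over the other genes alone, KO replicate 2 lay below WT replicate 2, so those sums overlapped. The ratio of KO to WT was uneven across roles. The summed level of the mitotic kinases was 1036 ± 30.5 CPM in KO and 728 ± 14.6 CPM in WT, a ratio of 1.42, and that of the kinesins and spindle proteins was 1275 ± 59.0 CPM in KO and 961 ± 42.6 CPM in WT, a ratio of 1.33. Aurka, Bub1 and Bub1b among these kinases, and Tpx2 and Nusap1 among these spindle proteins, lie on chromosome 2. Tested genes of that chromosome had a median log2 fold change of 0.34, and the sums by role were not split by chromosome. The cyclins with CDK1 and the CDC25 phosphatases had a ratio of 1.2. Foxm1 and Mki67 together had 693.5 ± 128 CPM in KO and 707 ± 64.9 CPM in WT, a ratio of 0.981. Per kilobase of transcript, the highest levels were those of Ube2c (191.9 CPM per kb in KO and 113.5 in WT), Cdk1 (136.7 in KO and 119.9 in WT) and Top2a (123 in KO and 104 in WT), and the lowest was that of Plk4 (9.76 in KO and 8.57 in WT).

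**Figure D1:**
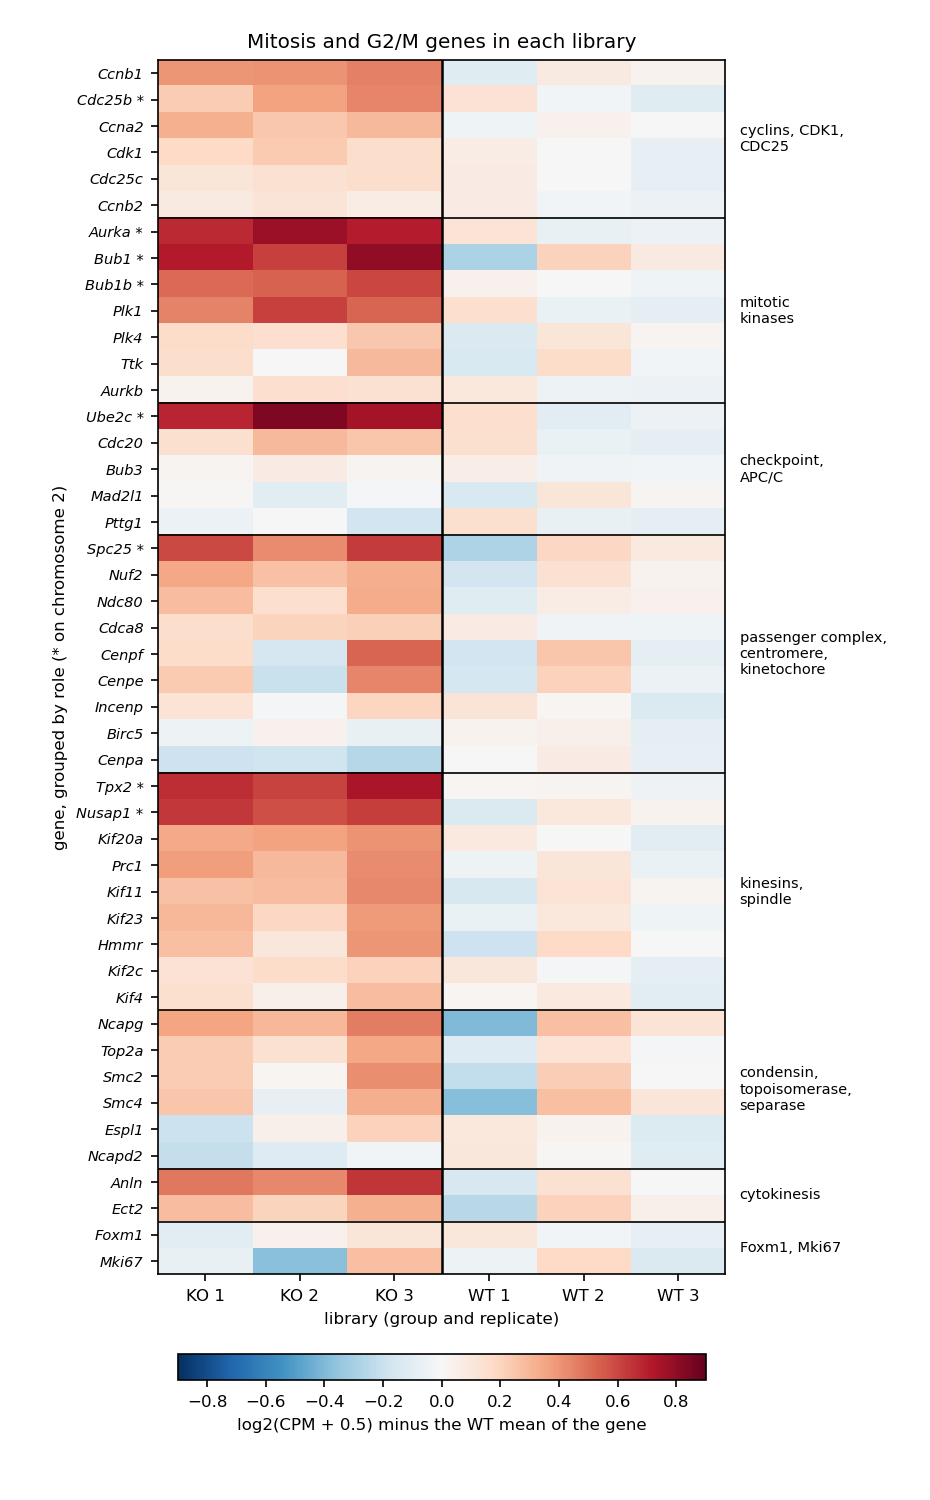
Level of each of the 46 genes in each library, as log2(CPM + 0.5) minus the mean of the gene over the 3 WT libraries; columns are libraries, rows are genes grouped by role and ordered within a role by fold change, and a star marks chromosome 2. The darkest red cells belong to Ube2c, Aurka, Bub1 and Tpx2 in the KO columns, and Cenpa is blue in all 3 of them.

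Among the cyclins, CDK1 and the CDC25 phosphatases, 3 of 6 genes were higher in KO, none was lower and the median log2 fold change was 0.24. Ccnb1, the cyclin B1 that pairs with CDK1 at mitotic entry, had 208.3, 208.7 and 216.1 CPM in KO, against 146.3, 166.9 and 161.2 CPM in WT, in the order of the replicates. Every KO library exceeded every WT library, and the difference was 1.33-fold (log2 fold change 0.42 ± 0.07 (SE), adjusted p = 0.00278). Ccna2, cyclin A2, which acts from S phase to early mitosis, had 113.8, 107.9 and 111.8 CPM in KO, against 88.5, 93.6 and 91.4 CPM in WT. Its groups did not overlap either, at a difference of 1.22-fold (0.28 ± 0.06, adjusted p = 0.00826). Cdc25b, a phosphatase that removes the inhibitory phosphates of CDK1, had 104.1, 114.2 and 120.9 CPM in KO, against 97.2, 87.5 and 82.6 CPM in WT. The groups did not overlap, and the difference was 1.27-fold (0.34 ± 0.09, adjusted p = 0.0188). Cdk1 itself had no overlap between groups, at 167 to 177 CPM in KO and 143 to 157 CPM in WT, and an adjusted p of 0.0518. Ccnb2 had a log2 fold change of 0.09 (95% interval -0.05 to 0.23) and Cdc25c one of 0.13, and neither was called. The call of Cdc25b was lost without KO replicate 2, KO replicate 3 or WT replicate 3. Ccnb1 has 4 pseudogenes of at least 95% identity, so how the counting divided their reads is unknown and its value is uncertain.

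The mitotic kinases held 4 of 7 genes higher in KO and the highest median among the roles with more than 2 genes, 0.53. Of the 4, Aurka, Bub1 and Bub1b lie on chromosome 2, where 58.3% of all tested genes were called higher. Plk1 lies on chromosome 7. Aurka, the Aurora A kinase of centrosome and spindle, had 179.4, 191.8 and 184 CPM in KO, against 122.4, 107.5 and 108.3 CPM in WT. The lowest KO library stood far above the highest WT library, and the difference was 1.64-fold (0.71 ± 0.07, adjusted p = 0.000259). Bub1b, the BubR1 protein of the checkpoint, had 328.9, 333.6 and 350.4 CPM in KO, against 237.2, 231.3 and 224.5 CPM in WT. The libraries of each group were close together, and the difference was 1.46-fold (0.55 ± 0.06, adjusted p = 0.000369). Bub1, the kinase that marks centromeric histone H2A, had 217.9, 204.3 and 231.3 CPM in KO, against 108.9, 153.2 and 140.7 CPM in WT. WT replicate 1 was the lowest library, the groups stayed apart, and the difference was 1.62-fold (0.71 ± 0.12, adjusted p = 0.00391). Plk1, the Polo-like kinase that acts at entry, at the spindle and in cytokinesis, had 85.8, 96.4 and 90.4 CPM in KO, against 69.6, 60.1 and 58.8 CPM in WT. All KO libraries lay above the WT libraries, by 1.45-fold (0.53 ± 0.08, adjusted p = 0.00256). The other kinases were not called: Plk4, the kinase of centriole duplication, at 0.19 ± 0.08, Ttk, the MPS1 checkpoint kinase, at 0.15 ± 0.10, and Aurkb, the Aurora B kinase of the passenger complex, at 0.11 ± 0.07.

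Of the 5 checkpoint and APC/C genes, 1 was higher in KO. Ube2c, the ubiquitin-conjugating enzyme that works with the APC/C, had 176, 196.6 and 184.2 CPM in KO, against 121.6, 102 and 105.7 CPM in WT. Its difference of 1.69-fold (0.76 ± 0.08, adjusted p = 0.000415) was the largest of the 46 genes, and the groups were far apart. Cdc20, the APC/C activator, had no overlap, at 110.8 to 122.3 CPM in KO and 94.2 to 110.6 CPM in WT, with 0.23 ± 0.08 and adjusted p = 0.0649. Bub3, a checkpoint protein that binds BUB1 and BUBR1, had 165.8, 171.9 and 165.6 CPM in KO, against 169.9, 159.1 and 160.1 CPM in WT. Its groups overlapped, with a log2 fold change of 0.04 (95% interval -0.09 to 0.18). Mad2l1, the MAD2 checkpoint protein, had -0.03 (-0.21 to 0.15) and Pttg1, securin, -0.08 (-0.27 to 0.12), and neither was called. Part of the Ube2c exons (22.8% of the bases) is also annotated to Tnnc2, which had a mean of 0.0643 CPM in KO and 0.0602 CPM in WT.

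Among the 9 genes of the chromosomal passenger complex, centromere and kinetochore, 3 were higher and 1 was lower in KO. The 3 higher genes, Spc25, Nuf2 and Ndc80, encode subunits of the NDC80 complex, which holds microtubule ends at the kinetochore. Spc25 had 69.9, 62.2 and 71.7 CPM in KO, against 38.1, 52.7 and 49.3 CPM in WT, without overlap and 1.46-fold apart (0.55 ± 0.12, adjusted p = 0.0126). Nuf2 differed by 0.32 ± 0.08 (adjusted p = 0.0259) and Ndc80 by 0.25 ± 0.08 (adjusted p = 0.0417). Cenpa, the histone H3 variant that defines the centromere, was the gene called lower, with 102, 102.6 and 97.2 CPM in KO, against 116.4, 122.2 and 110.3 CPM in WT. Every KO library was below every WT library, by -0.21 ± 0.06 on the log2 scale (adjusted p = 0.042), but the call was lost when any library other than WT replicate 1 was left out and in edgeR (adjusted p = 0.0641). Cenpf, a large kinetochore protein with a transcript of 11.1 kb, had 191.1, 152.9 and 245 CPM in KO, against 151.3, 202.3 and 161 CPM in WT. Its libraries were spread widely in both groups, and the log2 fold change of 0.18 had a 95% interval of -0.22 to 0.58. Cdca8, borealin, had no overlap and an adjusted p of 0.0522, and Incenp (0.10), Cenpe (0.16) and Birc5, survivin (-0.03), were not called. Leaving out KO replicate 1 ended the calls of Spc25, Nuf2 and Ndc80. The call of Nuf2 was also lost without KO replicate 2, KO replicate 3 or WT replicate 3, and that of Ndc80 without KO replicate 3, WT replicate 1 or WT replicate 3. Ndc80 has annotated copies of at least 95% identity over 303 and 202 of its 2201 bases, and its value is uncertain to that extent. The longer copy, 2700099C18Rik, averaged 1.53 CPM in KO and 5.33 CPM in WT. Mad2l1 and Mki67 also have pseudogenes at that identity, over 454 of 1725 bases and 216 of 10061 bases.

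The kinesins and spindle proteins had the largest number of called genes, 6 of 9 higher in KO and none lower, with a median of 0.32. Of the 6, Tpx2 and Nusap1 lie on chromosome 2. Tpx2, which targets Aurora A to the spindle and activates it, had the smallest adjusted p of the 46 genes: 279.6, 268.5 and 293.9 CPM in KO, against 178.6, 179.2 and 170.8 CPM in WT. The KO libraries stood well clear of the WT libraries, 1.59-fold apart (0.67 ± 0.06, adjusted p = 0.000161). Nusap1, which bundles spindle microtubules near chromosomes, had 149.7, 143.7 and 147.9 CPM in KO, against 87.8, 102.5 and 98.4 CPM in WT. Its groups were 1.53-fold apart without overlap (0.61 ± 0.07, adjusted p = 0.00061). Kif20a, a kinesin of the central spindle, had 155.9, 158.1 and 162.4 CPM in KO, against 130.7, 123 and 115.2 CPM in WT, and its groups did not overlap (1.29-fold, 0.37 ± 0.07, adjusted p = 0.00444). Prc1, which bundles antiparallel microtubules of the midzone, had 124, 116.9 and 128.4 CPM in KO, against 92.5, 102.7 and 91.3 CPM in WT. It differed by 1.29-fold (0.37 ± 0.07, adjusted p = 0.00672), again without overlap. Kif23, the central spindle kinesin MKLP1, had 187.6, 173.9 and 198.7 CPM in KO, against 146.7, 163.1 and 148.5 CPM in WT, and Kif11, the motor that keeps the spindle bipolar, had 160.8, 162.6 and 180.8 CPM in KO, against 121.3, 145.5 and 136 CPM in WT. Both were without overlap, with 0.29 ± 0.07 (adjusted p = 0.0214) for Kif23 and 0.32 ± 0.08 (adjusted p = 0.0228) for Kif11. The call of Kif11 was lost without KO replicate 1, KO replicate 2, KO replicate 3 or WT replicate 3. That of Kif23 was lost without KO replicate 1, KO replicate 3 or WT replicate 3. Hmmr (0.26), Kif2c (0.17) and Kif4 (0.16) were not called. Exons of Kif20a share 29.3% of their bases with Cdc23, which was not called and had 50.4 CPM in KO and 51.0 CPM in WT. Of the 46 genes, 15 share exon bases with another annotated gene. Among those called higher these are also Ube2c, Ccna2 (12.5% with Exosc9), Prc1 (11.1% with Rccd1), Plk1 (7.09%), Nusap1 (4.24% with Oip5) and Cdc25b (2.47%). Whether the counting used strand is not stated, so their values are uncertain to that extent.

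None of the 6 condensin, topoisomerase and separase genes was called, with a median of 0.19 and a range of -0.12 to 0.37. Top2a, the topoisomerase that untangles sister chromatids, had the highest level per kb of the role, and its libraries had 637.6, 596.9 and 691.4 CPM in KO, against 502.4, 593.1 and 540.3 CPM in WT. Its lowest KO library was just above its highest WT library, with 0.24 ± 0.09 and an adjusted p of 0.0719. The condensin subunit genes Ncapg (0.37 ± 0.16), Smc2 (0.22 ± 0.13), Smc4 (0.17 ± 0.17) and Ncapd2 (-0.12 ± 0.08) and Espl1, separase (0.02 ± 0.11), were not called either. WT replicate 1 was the lowest library for Ncapg, Smc2, Smc4 and Top2a.

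Of the pair of cytokinesis genes, Anln, the anillin scaffold of the contractile ring, was higher in KO, at 132.5, 129 and 149.1 CPM, against 86.3, 104.9 and 95.8 CPM in WT. No libraries overlapped, and the difference was 1.43-fold (0.52 ± 0.09, adjusted p = 0.0042). Ect2, the exchange factor that activates RhoA, had 0.27 ± 0.11 and was not called. Neither Foxm1, the transcription factor of the G2 wave, nor Mki67, the proliferation marker Ki-67, was called. Mki67 had 543.2, 438.3 and 684.8 CPM in KO, against 551.5, 642.3 and 517.9 CPM in WT, where KO replicate 2 was the lowest and KO replicate 3 the highest of all libraries. Its log2 fold change was -0.06 (95% interval -0.42 to 0.31), and that of Foxm1 was 0.02 (-0.16 to 0.20).

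**Figure D2:**
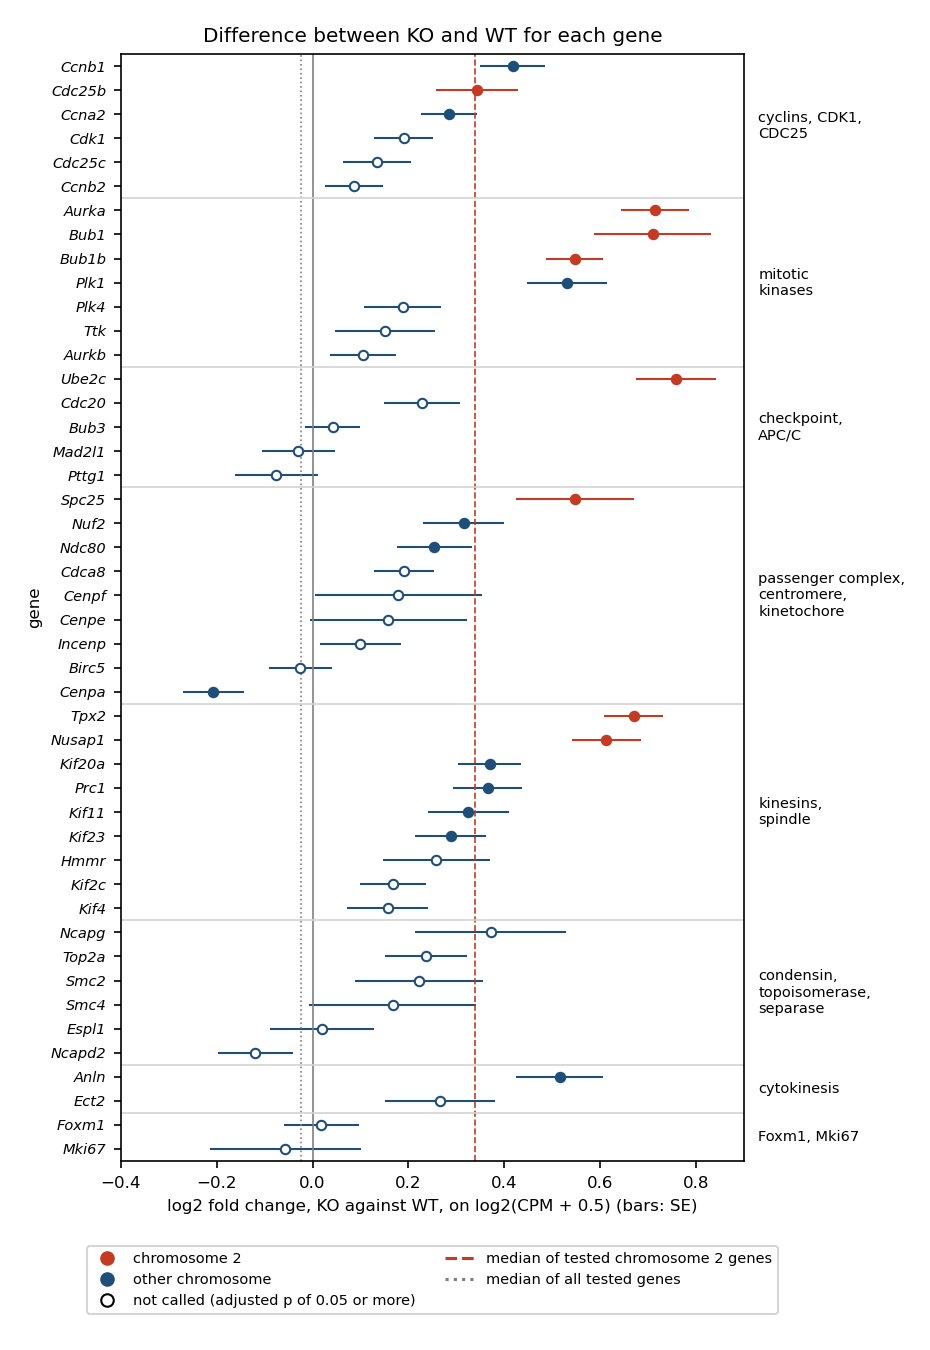
Log2 fold change of KO against WT for each gene, on log2(CPM + 0.5); points are limma estimates, bars are SE, filled points are called, red marks chromosome 2 and the vertical lines are the medians of all tested genes (-0.02) and of the tested genes of chromosome 2 (0.34). The 5 points furthest to the right, from 0.61 to 0.76, belong to chromosome 2, and Cenpa lies at -0.21.

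On the whole reads recovered from the CPM values, edgeR called 22 of the 46 genes higher (15.4% of all tested genes) and DESeq2 26 (17.6% of all tested genes), and the 18 genes called higher by limma were called higher by all 3 tools. The 4 that edgeR added were Top2a (adjusted p = 0.0353), Cdca8 (0.0447), Plk4 (0.0458) and Cdk1 (0.0481). Of these 18, 11 kept their call under all alternative settings in which they were tested (22, or 21 for genes of chromosome 2).

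The differences varied with the chromosome. Chromosome 2 holds 8 of them (Ube2c, Aurka, Bub1, Tpx2, Nusap1, Bub1b, Spc25 and Cdc25b), and all 8 were called higher, with a median log2 fold change of 0.64 and a range of 0.34 to 0.76. Among all 863 tested genes of chromosome 2, 58.3% were called higher, and their median was 0.34. Set against the WT mean of each gene, the median of all tested chromosome 2 genes was 0.32, 0.33 and 0.37 in KO replicates 1, 2 and 3. Off chromosome 2, 10 of 38 mitotic genes were called higher (26.3%), 1 was lower and 27 were not called, with a median of 0.18, against 9.57% of 9751 genes called higher and a median of -0.04. These 10 genes were Ccnb1, Ccna2, Plk1, Nuf2, Ndc80, Kif11, Kif20a, Kif23, Prc1 and Anln. The 8 genes of chromosome 2 exceeded their chromosome's median by a median of 0.30, and Cdc25b stood at it. Of the 46 genes, 44 had a log2 fold change above the median of their own chromosome, and Cenpa and Pttg1 were below it. Chromosome 6, whose tested genes had a median of -0.16, holds Foxm1, Mad2l1 and Ncapd2, none of which was called. DNA copy number was not measured, and the part of position in the differences of single genes was not tested.

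**Figure D3:**
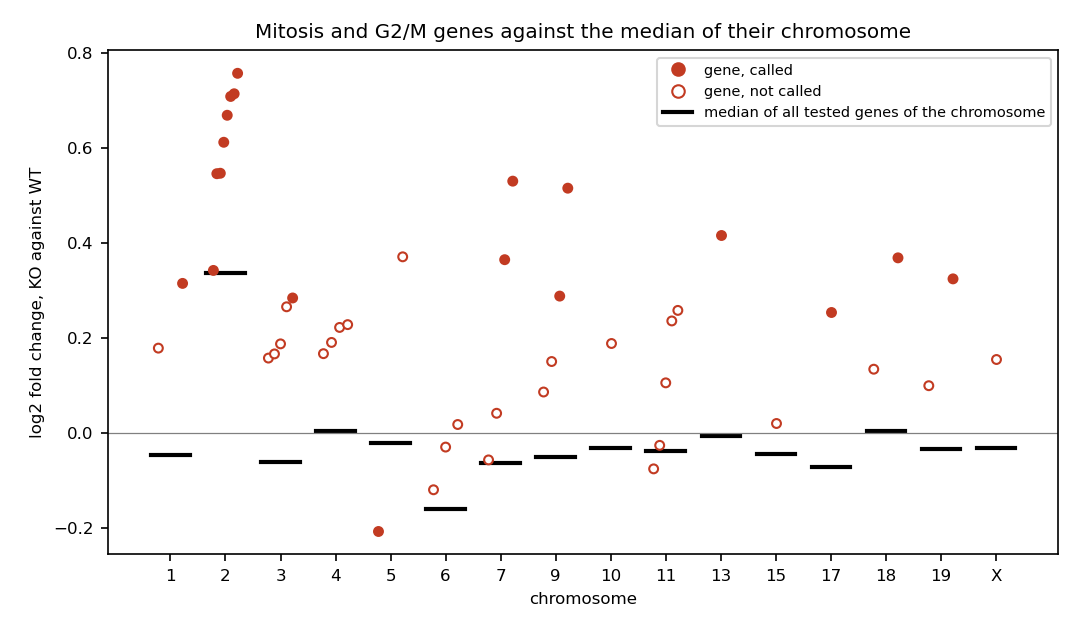
Log2 fold change of KO against WT for the 46 genes by chromosome (points, filled where called) beside the median of all tested genes of the same chromosome (black bars). The chromosome 2 bar lies at 0.34 with 7 genes above it and Cdc25b on it, and on the other chromosomes most points lie above bars that are near or below 0.

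Libraries of a group differed from each other in a way that followed transcript length and GC content. Across the 46 genes, the deviation of a library from its group mean had a Pearson r with log2 transcript length of -0.08, -0.70 and 0.87 in KO replicates 1, 2 and 3, and of -0.36, 0.55 and -0.03 in WT replicates 1, 2 and 3. With GC content the r values were -0.70, 0.60 and -0.29 in KO and 0.91, -0.84 and -0.77 in WT. The points share a library and its depth, and these are descriptions across genes. Over all 10565 tested genes with a length, r with length was -0.26, -0.22 and 0.43 in KO replicates 1, 2 and 3. In WT replicates 1, 2 and 3 it was -0.22, 0.20 and 0.09. With GC content, the r values over these genes were -0.39, 0.44 and -0.19 in KO and 0.71, -0.50 and -0.50 in WT. The 13 genes of at least 4 kb summed to 2805, 2541 and 3231 CPM in KO, against 2447, 2884 and 2523 CPM in WT, so the groups overlapped. The 13 genes under 2 kb summed to 1408, 1465 and 1429 CPM in KO, against 1263, 1221 and 1179 CPM in WT, with no overlap. Among the long genes 2 of 13 were called higher, against 13 of 20 among those from 2 to 4 kb and 3 higher and 1 lower of 13 among the short ones. The 3 higher short genes, Aurka, Ube2c and Spc25, lie on chromosome 2 and are part of the short-gene sums. No long gene lies on chromosome 2, so length class and chromosome are mixed here. The share called over all tested genes of each length class was not computed.

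When a length and GC trend fitted over all tested genes was removed from each library, an alternative chosen after seeing the data, the median SD within a group dropped to 0.0472 in KO (0.0817 before) and 0.065 in WT (0.117 before) on the log2 scale. With it, 32 of the 46 genes were called higher, against 28.0% of 10565 tested genes, and 1 was lower. The 32 included the 18 genes called higher without it and 14 more, among them Cdk1, Ccnb2, Aurkb, Cdc20, Cenpf, Top2a and Ect2. The median log2 fold change was 0.24 with the trend removed.

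**Figure D4:**
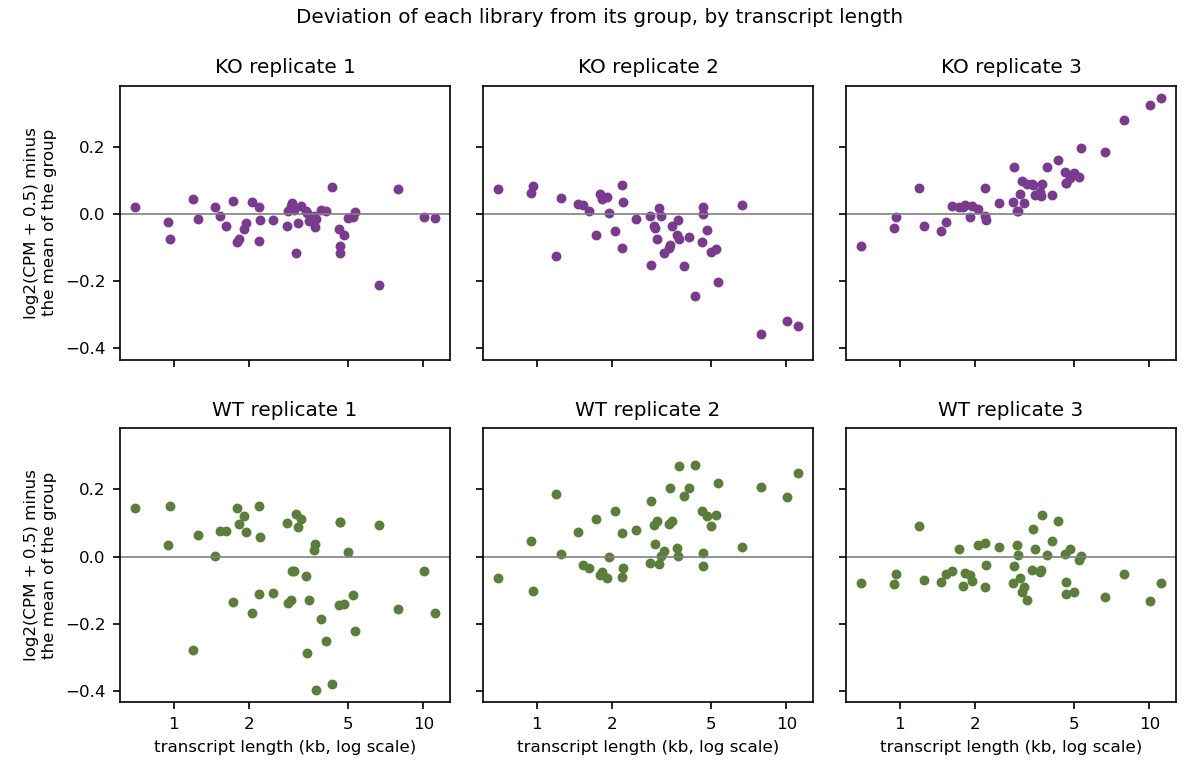
Deviation of each library from its group mean, in log2(CPM + 0.5), against transcript length (kb, log scale) for the 46 genes, with KO replicates above and WT replicates below; each point is a gene. The points climb with length in KO replicate 3 (r = 0.87) and sink in KO replicate 2 (r = -0.70), and in WT replicate 2 they climb (r = 0.55).

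The differences were also read against the promoter letters. The median log2 fold change was 0.23 over the 28 genes with the letters, of which 10 were called higher and 1 lower, and 0.25 over the 10 without, of which 5 were called higher. Off chromosome 2 the order was the other way, at 0.21 over 24 genes with the letters and 0.16 over 7 without.

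A wider list of 137 other mitotic genes, of which 136 were tested and Haus3 was listed at 0 in all libraries, gave 34 genes higher and 5 lower in KO, with a median of 0.14. On chromosome 2, 14 of 16 of them were higher, against 58.3% of all tested genes there. Off it, 20 of 120 (16.7%) were higher and 5 lower, against 9.57% of all tested genes there called higher. Without KO replicate 1 the count of higher genes was 21, and without KO replicate 3 it was 22. The count of lower genes was 3 without KO replicate 2 and 3 without WT replicate 2.

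The regulators of G2/M entry had 7 of 15 genes higher and 2 lower. Over all tested genes 13.5% were higher and 16.9% lower, the shares to set beside this and the following sublists. Cdkn3, a phosphatase that acts on cyclin-dependent kinases, averaged 23.4 ± 1.00 CPM in KO and 15.9 ± 0.677 CPM in WT (SD, n = 3 each; adjusted p = 0.00136). Mastl, the Greatwall kinase that restrains the phosphatase PP2A in mitosis and lies on chromosome 2, averaged 45.8 ± 2.55 CPM in KO and 25.6 ± 4.72 CPM in WT (adjusted p = 0.00223), and its difference of 1.79-fold was the largest of the list. Ccnf, cyclin F, was 1.38-fold higher (adjusted p = 0.00225) and Melk, a kinase of dividing cells, 1.27-fold higher (adjusted p = 0.0043). Ensa, a substrate of Greatwall, was lower at 0.852-fold (adjusted p = 0.0169), and so was Pkmyt1, a kinase that inhibits CDK1, at 0.786-fold (adjusted p = 0.0285); both were singled out after their values were seen.

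Of the MuvB, DREAM and B-MYB genes, 3 of 12 were higher and 1 was lower, against 13.5% higher and 16.9% lower of all tested genes. Mybl2, which encodes B-MYB and lies on chromosome 2, averaged 169.9 ± 6.76 CPM in KO and 104.5 ± 8.72 CPM in WT, 1.63-fold apart (adjusted p = 0.000391). Tfdp2, an E2F partner, averaged 86.5 ± 3.08 CPM in KO and 134.7 ± 7.56 CPM in WT, or 0.643-fold (adjusted p = 0.00034). Rbl1, the pocket protein p107, also on chromosome 2, was 1.37-fold higher (adjusted p = 0.0199), and Lin54, the MuvB subunit that contacts the CHR, was 1.35-fold higher (adjusted p = 0.0376).

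Kinesins and spindle proteins had 9 of 28 genes higher and 1 lower (Haus5, named after its values were seen, at 0.687-fold). The 4 with the smallest adjusted p were Nek6, a kinase that acts on spindle kinesins, at 1.65-fold and Ckap2l at 1.49-fold, both on chromosome 2, and Gtse1 at 1.70-fold and Haus8, an augmin subunit, at 1.44-fold, on other chromosomes. The APC/C and checkpoint genes had 5 of 21 higher and 1 lower: Anapc1, the scaffold subunit of the APC/C, on chromosome 2, was 1.40-fold higher (adjusted p = 0.00158), while Cdc16, another subunit, was at 0.786-fold (adjusted p = 0.0053). Trip13, which remodels MAD2, and Fbxo5, the APC/C inhibitor EMI1, were 1.21-fold and 1.24-fold higher. Of the other kinetochore genes 4 of 32 (12.5%) were higher, near the 13.5% of all tested genes. They were Oip5 (1.41-fold), Dsn1 (1.26-fold) and Knl1 (1.65-fold), all on chromosome 2, and Ska2 (1.3-fold) on another chromosome. Dsn1, at a log2 fold change of 0.33, lay just below the median of its chromosome. Condensin and cohesin also had 12.5% higher, 2 of 16, the condensin subunit genes Ncaph (1.41-fold, on chromosome 2) and Ncapg2 (1.62-fold, on another chromosome). Cytokinesis had 4 of 12 higher, Arhgap11a (1.58-fold) and Chmp4b (1.31-fold) on chromosome 2, and, on other chromosomes, Depdc1b (1.25-fold) and Rhoa (1.17-fold).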

How the data were processed

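RNA of 3 APOBEC1 KO and 3 WT plates of RAW 264.7 cells was sequenced as paired-end reads from poly(A) libraries, per the labels' protocols. The aligner STAR 2.6.0a with the mouse build mm10, and Trim Galore, FastQC, SAMtools and Picard, are named, per the submitters' processing notes. Alignments were coordinate-sorted and de-duplicated, per the file headers. Not given in the sources used here are the counting tool, the gene models behind it and whether strand was used. CPM values were deposited by the authors for 24848 gene symbols. These were whole multiples of 1 read in 100% of values (tolerance 0.01), so whole reads were recovered. A count of 0 allows up to 3 reads, or 0.0426 to 0.0594 CPM, and this limit covers counting error only, since no molecular identifiers were used.

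The test took the 10614 genes that reached 1 CPM in 3 or more of the 6 libraries and ran on log2(CPM + 0.5), so fold changes of low genes are understated. The test was limma 3.58.1 in R 4.3.3 (eBayes, trend on, all 6 libraries, without covariates), with Benjamini-Hochberg adjustment over all tested genes and calls at an adjusted p under 0.05. Intervals are limma's 95% confidence intervals. edgeR 4.0.16 (quasi-likelihood) and DESeq2 1.42.0 on the recovered reads were alternatives: edgeR called 1639 and DESeq2 1870 genes higher. Scripts were tested on simulated data. Symbols were matched to GENCODE M21 (24305 directly, 136 by an older symbol, 407 not) for position, length and GC content, taking the lower median length among principal coding transcripts. Promoters came from RefSeq.

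The 46 genes, the other gene lists and the tests were chosen with earlier results of these data known, so no p is given for a list. Values in all libraries are given for the 16 called genes with the smallest adjusted p, for called genes that went against the majority and for the gene with the highest mean CPM of each role. Of the other mitotic genes, up to 4 called genes of each sublist were named by adjusted p.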

Additional observations from a re-analysis of the deposited data

How the results depend on the processing

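The median log2 fold change of the 46 genes stayed positive under every setting, between 0.176 and 0.302. Other pseudocounts (0.1 and 1) and filters (none, 0.5 or 5 CPM) changed no call among the 46 genes. The count of genes higher in KO was 18; it was 10 without the genes of chromosome 2 (8 of the 46 are then not tested), 32 with the length and GC trend removed, 25 with TMM scaling, 26 with DESeq2 size factors, and 13 to 22 when a library was left out. The count of genes lower (Cenpa) was 1; it was 0 with TMM scaling, DESeq2 size factors, limma without a trend, edgeR, the replicate block, and the length and GC trend removed with the replicate block, and 0 to 1 when a library was left out. At an unadjusted p under 0.05, limma, edgeR and DESeq2 each had 1 lower. With TMM scaling and DESeq2 size factors, the median log2 fold change over all tested genes moved from -0.0234 to 0.0235 and 0.0254. That of the 46 genes moved from 0.225 to 0.274 and 0.276. The share called higher over all tested genes is not given for the scaling, left-out library and replicate block settings. The cause of the changed counts was not tested. The adjusted p of Cenpa ran from 0.0161 to 0.145 over the settings. No called gene changed sign.

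Among the other mitotic genes, the count higher was 34; it was 19 without chromosome 2, 76 with the trend removed and 58 with the trend removed and the replicate block, with 21 to 38 when a library was left out. The count lower was 5, but 8 after rescaling without the ribosomal RNA precursor Rn45s, and 3 to 7 when a library was left out. Trend removal and rescaling were chosen after seeing the data.

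KO and WT libraries share replicate numbers, but their deviations from the group means did not run together by number. The correlations of same-numbered deviations were -0.25, -0.64 and -0.17, and no library correlated best with its own number. The deviations also followed length and GC content, so they cannot tell whether the numbers mark pairs. With the replicate block, 12 of the 46 genes were higher and 0 lower, and of the other mitotic genes 21 were higher and 3 lower.

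Signs turned only for uncalled genes. Log2 fold changes became 0.019 for Mad2l1 and 0.022 for Birc5 with TMM scaling, 0.020 and 0.024 with DESeq2 size factors, and 0.001 (edgeR) and 0.002 (DESeq2) for Birc5 on reads. With quantile normalization they were -0.047 for Bub3 and -0.042 for Foxm1. With the trend removed, with or without the replicate block, they were 0.034 for Pttg1, 0.083 for Birc5 and 0.026 for Mki67. Over the fits that each left out a library, the values ran from -0.097 (without WT replicate 1) to 0.026 (without WT replicate 2) for Mad2l1 and from -0.219 (KO replicate 3) to 0.102 (KO replicate 2) for Mki67. They ran from -0.072 (KO replicate 3) to 0.126 (KO replicate 1) for Espl1, from -0.029 (KO replicate 3) to 0.075 (KO replicate 1) for Foxm1 and from -0.023 (WT replicate 1) to 0.303 (WT replicate 2) for Smc4.

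Each of the 46 genes had at least 1273 reads in each library. The 95% intervals of uncalled genes such as Cenpf and Mki67 cover changes in either direction. With the trend removed, limma called Cenpf (adjusted p = 0.0457) but not Mki67 (adjusted p = 0.847). Cenpf was called in only 1 of 22 alternative settings.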
